A study of Mus musculus with 12 samples.

Results

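The 9 genes described here encode the proteins that carry a cell from the G1 phase into DNA replication: the D-type cyclins Ccnd1, Ccnd2 and Ccnd3, the E-type cyclins Ccne1 and Ccne2, the cyclin-dependent kinases Cdk4, Cdk6 and Cdk2, and the inhibitor Cdkn1b (p27). They were taken by name, each read from the probe set of highest mean among those assigned to that gene alone, and all 9 were measured among 19938 genes. Affymetrix arrays measured total RNA of 12 samples, all grown from a clone of D3, a line of mouse embryonic stem (ES) cells. The 4 groups of 3 biological replicates were undifferentiated ES cells at day 0, untreated embryoid bodies (EBs) at day 4, EBs given the solvent DMSO for 12 h, and EBs given all-trans retinoic acid (ATRA) at 5 micromolar for 12 h. The labels name no genetic change, and all cells came from 1 clone kept in ES medium with serum. EBs are aggregates formed in bacteriological dishes, here without the cytokine LIF, and it is unclear from the labels if the 12 h formed part of the 4 days or came after. The DMSO and ATRA groups therefore share the aggregation and the lack of LIF, and DMSO is taken here as the solvent of ATRA.

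In G1, mitogen signals raise the D-type cyclins, which bind Cdk4 or Cdk6 and begin to phosphorylate the retinoblastoma (Rb) family, the pocket proteins that hold back E2F transcription factors. Cyclin E with Cdk2 then completes that phosphorylation and starts DNA replication, and Cdkn1b binds and restrains the Cdk2 complexes. Mouse ES cells are known for a short G1 phase with high cyclin E-Cdk2 activity, and G1 lengthens as they differentiate. Cyclin proteins are also controlled by degradation, which an RNA measurement does not see.

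Levels below are deposited log2 values, as means ± SD (n = 3 arrays), and changes are log2 differences ± SE from limma over all 12 arrays. A gene was called when its two-sided p, Benjamini-Hochberg adjusted over all genes, was below 0.05. Array medians lay between 7.76 and 7.86, and 3 arrays per group limit the precision. The mean of 7 pluripotency markers was 12.50 to 12.54 on the ES arrays. It was 12.46 to 12.54 on the day 4 EB arrays, so this mean does not tell these labels apart. Within the list, Sox2 was called higher in day 4 EBs than in ES cells (0.32 ± 0.06), Klf4 lower (-0.52 ± 0.05), and 5 were not called.

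From ES cells to day 4 EBs 4 of the 5 G1 cyclin genes were called lower, as were 16.9% of all genes. Ccnd1 fell furthest, with a 2.56-fold difference. Cdkn1b and, by less, Cdk6 were called higher, as were 17.8% of all genes. With ATRA, Cdk6 was 1.83-fold lower and Ccnd2 1.35-fold higher than with DMSO. Cdk4 was not called in any of the 6 pairs of groups in limma, with a smallest unadjusted p of 0.118. DMSO against day 4 EBs gave no call among the 9, where 0.747% of all genes were called.

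**Figure D1:**
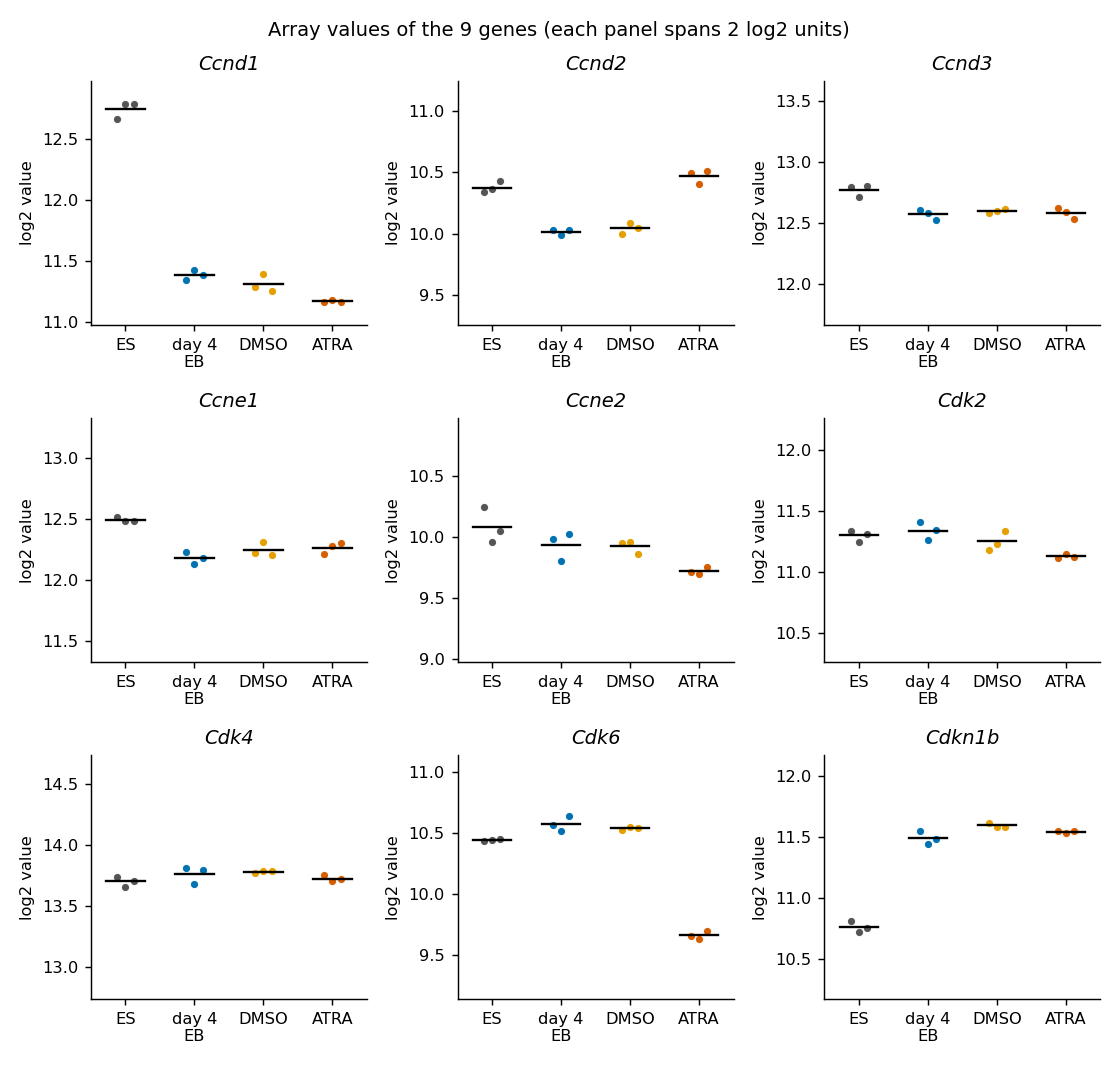
Deposited log2 values (vertical axis) of the 9 genes in the 4 groups (horizontal axis), 1 point per array and a bar at the mean of 3; every panel spans the same number of log2 units. Ccnd1 dropped from 12.74 in ES cells to 11.38 in day 4 EBs, and Cdk6 stood at 9.67 with ATRA against 10.54 with DMSO.

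Ccnd1, the D-type cyclin most closely tied to growth factor signalling, had values of 12.66, 12.79 and 12.78 on the ES arrays. Day 4 EBs gave 11.35, 11.43 and 11.38, DMSO 11.28, 11.39 and 11.25, and ATRA 11.16, 11.18 and 11.16. The ES arrays lay far above all others, and the ATRA arrays lay below every DMSO and every day 4 EB array. Ccnd1 fell by 1.36 ± 0.05 on the log2 scale from ES cells to day 4 EBs, or 2.56-fold (limma, adjusted p = 1.51e-09). ATRA-treated EBs were 0.14 ± 0.05 below DMSO, which did not pass (adjusted p = 0.102), and were called lower than day 4 EBs (-0.22 ± 0.05, adjusted p = 0.0113). Against DMSO the call was made with the genes above the median of mean value (adjusted p = 0.039), an intensity trend (0.031) and array weights (0.0233).

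Ccnd2, a D-type cyclin prominent in neural progenitors and the gonads, took another course. Its ES arrays read 10.34, 10.36 and 10.43, its day 4 EB arrays 10.03, 9.98 and 10.03, its DMSO arrays 9.999, 10.09 and 10.05 and its ATRA arrays 10.49, 10.41 and 10.51. The EB and DMSO arrays formed the low set, and the ES and ATRA arrays overlapped above them. The gene fell by 0.36 ± 0.05 on the log2 scale from ES cells to day 4 EBs (limma, adjusted p = 5.53e-05) and rose by 0.43 ± 0.05 with ATRA over DMSO (adjusted p = 5.67e-05). Between ATRA-treated EBs and ES cells the difference was 0.10 ± 0.05 (95% interval -0.01 to 0.20, adjusted p = 0.14). In order of level the groups ran ATRA, ES, DMSO and day 4 EBs, and only the step from ES to DMSO separated called neighbours (-0.33 ± 0.05, adjusted p = 1.03e-04).

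Ccnd3, the third D-type cyclin, varied least of the D cyclins. The 3 ES arrays ran from 12.71 to 12.80 and the 9 EB arrays of all kinds from 12.53 to 12.63, without overlap. It fell by 0.20 ± 0.04 on the log2 scale from ES cells to day 4 EBs (limma, adjusted p = 0.00393), and ATRA differed from DMSO by -0.02 ± 0.04 (95% interval -0.12 to 0.08). Its lower levels with DMSO (-0.17 ± 0.04) and ATRA (-0.19 ± 0.04) than in ES cells lost their calls after median centring (adjusted p = 0.127 and 0.0718).

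Of the E-type cyclins, which activate Cdk2 at the G1/S boundary, Ccne1 gave 12.52, 12.48 and 12.48 in ES cells and 12.23, 12.13 and 12.18 in day 4 EBs. With DMSO it stood at 12.22, 12.31 and 12.21, and with ATRA at 12.22, 12.28 and 12.30. Every ES array exceeded every EB array, and the EB groups overlapped. Ccne1 fell by 0.31 ± 0.05 on the log2 scale into day 4 EBs (limma, adjusted p = 1.95e-04), with an ATRA effect of 0.02 ± 0.05 (95% interval -0.08 to 0.12).

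Ccne2 was the noisiest of the 9. ES cells stood at 10.09 ± 0.15, day 4 EBs at 9.94 ± 0.12, DMSO at 9.93 ± 0.05 and ATRA at 9.73 ± 0.03. The highest ATRA array, at 9.76, lay below every array of the other groups, the lowest of which was an EB array at 9.80. Of the 6 pairs of groups, ATRA against ES cells was called (-0.36 ± 0.08, limma, adjusted p = 0.00233). ATRA against DMSO gave -0.20 ± 0.08 (adjusted p = 0.112), and 5 alternative settings called it, with adjusted p from 0.0137 to 0.047. Among these was the fit without ES replicate 1 (0.0453), and without ES replicate 2 and EB replicate 2 together it was 0.0374. ATRA against day 4 EBs (-0.21 ± 0.08, adjusted p = 0.0763) was called in 7 of the 23 settings, with 0.0289 without ES replicate 1 and 0.0255 without EB replicate 2. DMSO against ES cells (-0.16 ± 0.08, adjusted p = 0.12) was called in 4, with 0.0439 without ES replicate 2.

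Cdk6, a kinase partner of the D cyclins, showed the largest ATRA response of the 9. Its arrays read 10.44, 10.44 and 10.45 in ES cells, 10.57, 10.52 and 10.64 in day 4 EBs and 10.52, 10.55 and 10.55 with DMSO. With ATRA they read 9.66, 9.64 and 9.70. All 3 ATRA arrays lay well below the other 9. Cdk6 fell by 0.87 ± 0.04 on the log2 scale with ATRA against DMSO (1.83-fold, limma, adjusted p = 8.02e-08). It fell by 0.91 ± 0.04 against day 4 EBs and by 0.78 ± 0.04 against ES cells. By size of change it ranked 122 of 19938 genes for ATRA against DMSO. In day 4 EBs it was called higher than in ES cells by 0.13 ± 0.04 (adjusted p = 0.034). That small rise lost its call without ES 1, ES 2, ES 3, EB 1, EB 3 or ATRA 1 (0.10 to 0.14), and with only those 2 groups in the fit (adjusted p = 0.139). In order of level the groups ran day 4 EBs, DMSO, ES and ATRA, and of these neighbours ES and ATRA differed past the threshold. DMSO against ES cells (0.10 ± 0.04) was called in 2 of the 23 settings.

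Cdk4, the other partner of the D cyclins, lay near the top of the array's range, and any compression of its changes there was not tested. Its means were 13.70 ± 0.04 (ES cells), 13.76 ± 0.07 (day 4 EBs), 13.78 ± 0.01 (DMSO) and 13.72 ± 0.03 (ATRA). ATRA differed from DMSO by -0.06 ± 0.05 (95% interval -0.16 to 0.05), although the 3 and 3 arrays did not overlap. Cdk2, the partner of cyclin E, stood at 11.30 ± 0.04, 11.33 ± 0.07, 11.25 ± 0.08 and 11.13 ± 0.02 in the same order. The ATRA arrays, at most 11.15, lay below all others. Cdk2 with ATRA was called lower than in day 4 EBs (-0.21 ± 0.05, limma, adjusted p = 0.0155) and than in ES cells (-0.17 ± 0.05, adjusted p = 0.0225), and against DMSO gave -0.12 ± 0.05 (adjusted p = 0.167). Median centring ended both calls (adjusted p = 0.081 and 0.182). The call against day 4 EBs also ended without EB 1, ATRA 1 or ATRA 3 (-0.21 to -0.17), and that against ES cells without ES 1, ES 3, ATRA 1 or ATRA 3 (-0.17 to -0.15).

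Upstream sequences of 6 of the 9 genes were found in the RefSeq promoter table of build GRCm38.p6. Those of Cdk6 and Cdk4 are printed because the kinases share the D cyclins and differed in their ATRA response. Each is the 250 bases before a RefSeq start site, on the plus strand, at chr5:3343643-3343892 for Cdk6 and chr10:127063285-127063534 for Cdk4. The Cdk6 window lies inside the RefSeq gene record, which begins farther upstream. Capitals mark the E-box CACGTG, bound by Myc proteins, and the GC box GGGCGG, on both strands.
Cdk6: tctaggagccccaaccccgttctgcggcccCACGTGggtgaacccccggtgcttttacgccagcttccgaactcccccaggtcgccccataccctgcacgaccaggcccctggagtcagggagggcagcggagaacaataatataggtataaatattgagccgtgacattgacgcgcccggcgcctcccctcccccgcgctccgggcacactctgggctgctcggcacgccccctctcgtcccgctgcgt
Cdk4: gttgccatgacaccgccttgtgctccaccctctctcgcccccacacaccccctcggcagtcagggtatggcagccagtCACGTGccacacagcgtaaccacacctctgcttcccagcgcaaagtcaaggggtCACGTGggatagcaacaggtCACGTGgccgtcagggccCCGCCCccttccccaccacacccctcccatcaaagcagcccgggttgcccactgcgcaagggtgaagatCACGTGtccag
The Cdk4 window held 4 E-boxes, which begin 172, 118, 98 and 11 bases before the start site, and the Cdk6 window held 1, at 220 bases. Of 32817 RefSeq windows of the same length, 6.02% held at least 1 E-box and 7 held 4 or more. A half-site of retinoic acid receptor binding, AGGTCA, lay in the Cdk4 window at 102 bases, overlapping the E-box at 98 bases, and 14% of windows held that half-site. These matches describe letters and not binding.

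Cdkn1b, whose protein p27 holds Cdk2 complexes inactive, moved opposite to the cyclins at the first step. Its ES arrays read 10.81, 10.72 and 10.75, its day 4 EB arrays 11.55, 11.44 and 11.48, its DMSO arrays 11.62, 11.58 and 11.58 and its ATRA arrays 11.55, 11.53 and 11.55. The 9 EB arrays stood clear above the ES arrays. Cdkn1b rose by 0.73 ± 0.04 (1.66-fold) from ES cells to day 4 EBs (limma, adjusted p = 6.92e-08). ATRA against DMSO gave -0.05 ± 0.04 (95% interval -0.15 to 0.04), and DMSO against day 4 EBs 0.10 ± 0.04 (unadjusted p = 0.035, adjusted p = 0.267). A second Cdkn1b probe set, outside the main test, gave a larger rise from ES cells to day 4 EBs (1.24 ± 0.12, limma over all single-gene probe sets, adjusted p = 6.02e-06), from 7.72 ± 0.29 to 8.96 ± 0.18, and -0.11 ± 0.12 for ATRA against DMSO. The upstream sequence of Cdkn1b is printed because this gene, the inhibitor among the 9, rose. The sequence covers chr6:134920151-134920400 of GRCm38.p6, plus strand, with capitals at GGGCGG and at CCAAT boxes.
Cdkn1b: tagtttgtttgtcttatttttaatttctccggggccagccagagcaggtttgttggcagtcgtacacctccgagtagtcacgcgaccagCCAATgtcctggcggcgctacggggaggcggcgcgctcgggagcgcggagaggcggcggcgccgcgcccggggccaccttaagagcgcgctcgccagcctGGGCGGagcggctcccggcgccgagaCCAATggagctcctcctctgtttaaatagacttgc
It held 2 CCAAT boxes, 161 and 35 bases before the start site, and 1 GC box at 61 bases, and no E-box was matched. CCAAT and GC boxes each occur in about as many windows, 33.8% and 32.7% of the 32817.

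**Figure D2:**
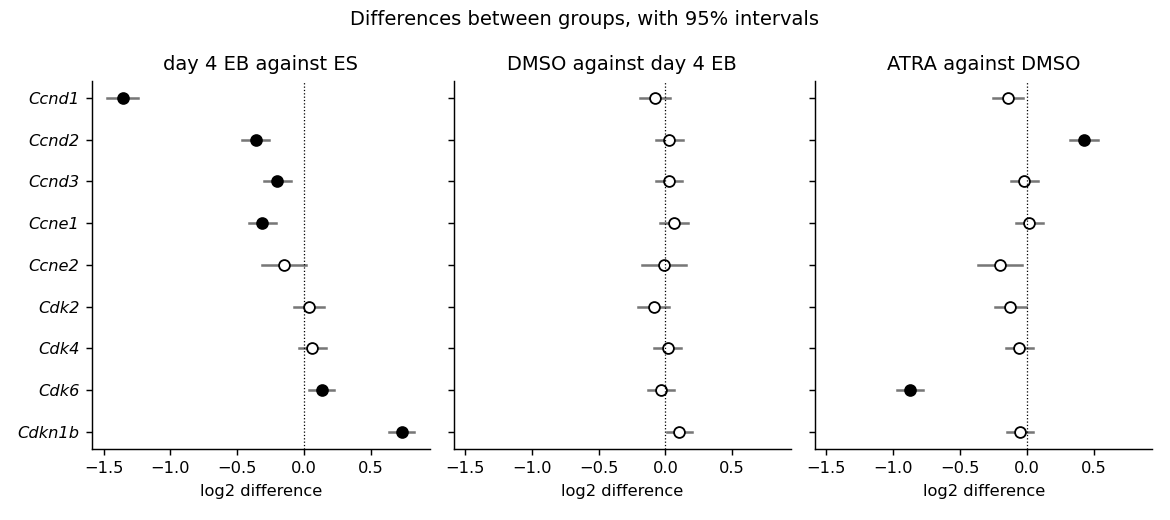
Log2 differences (horizontal axis) of the 9 genes (vertical axis) in 3 comparisons, with 95% intervals from limma; filled points passed an adjusted p of 0.05. The 5 cyclins lie left of 0 for day 4 EBs against ES cells, with Ccne2 not passing, all points for DMSO lie near 0, and Cdk6 and Ccnd2 are the filled points for ATRA.

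Counted over the 9 genes, day 4 EBs against ES cells called 2 higher (Cdkn1b and Cdk6) and 4 lower (Ccnd1, Ccnd2, Ccnd3 and Ccne1), where 34.7% of all genes were called, 17.8% higher and 16.9% lower. The median change of the 9 was -0.15, against -0.00 over all genes, and the 3 and 3 arrays did not overlap for 6 of them (41.3% of all genes). DMSO against day 4 EBs called 0 of 9 in limma, where 0.747% of all genes were called, and 1, Cdkn1b, had an unadjusted p under 0.05. ATRA against DMSO called 1 higher (Ccnd2) and 1 lower (Cdk6), where 13.3% of all genes were called, 6.26% higher and 7.05% lower; 2 of 9 is no more than a description beside that share. Arrays of these groups did not overlap for 7 of the 9 and for 39.6% of all genes. ATRA against day 4 EBs called 1 higher (Ccnd2) and 3 lower (Ccnd1, Cdk2 and Cdk6), with 18.4% of all genes called. Against ES cells, DMSO called 1 higher and 4 lower (39% of all genes), and ATRA 1 higher and 6 lower (36.6%). Comparisons that share a group of arrays are not independent.

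Markers of other cells moved with the step out of the ES state. The labels name no feeder cells, yet the mean log2 value of 14 fibroblast markers was 9.35 to 9.37 on the ES arrays and 8.21 to 8.33 on the day 4 EB arrays. Of these markers 12 fell, S100a4 most (from 10.64 to 8.34), and Lum, at 4.70 in ES cells, lay near the bottom of the range in all groups. All 11 endoderm markers rose, and their mean went from 8.90 to 8.97 up to 10.05 to 10.24. The part of these cells in the fall of Ccnd1, Ccnd2, Ccnd3 and Ccne1 and in the rise of Cdkn1b was not tested, and in bulk RNA fewer cells of a type and less RNA per cell cannot be told apart. Between DMSO and ATRA the fibroblast mean overlapped, at 8.19 to 8.23 and 8.21 to 8.25, with 2 markers called higher and 4 lower. Pdgfrb rose from 8.15 with DMSO to 9.65 with ATRA, and Loxl1 from 8.45 to 8.69. The 4 lower markers were Dcn, S100a4, Thy1 and Mmp2, with log2 differences from -0.41 (Dcn) to -0.35 (Mmp2). Rises and falls offset each other in this mean, so its overlap does not show that the markers were level. The endoderm mean was 10.43 to 10.62 with DMSO and 10.26 to 10.41 with ATRA (1 marker higher, 5 lower of 11), and the pluripotency mean 12.44 to 12.49 and 12.29 to 12.34 (3 of 7 lower). Their part in the changes of Cdk6 and Ccnd2 was not tested.

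**Figure D3:**
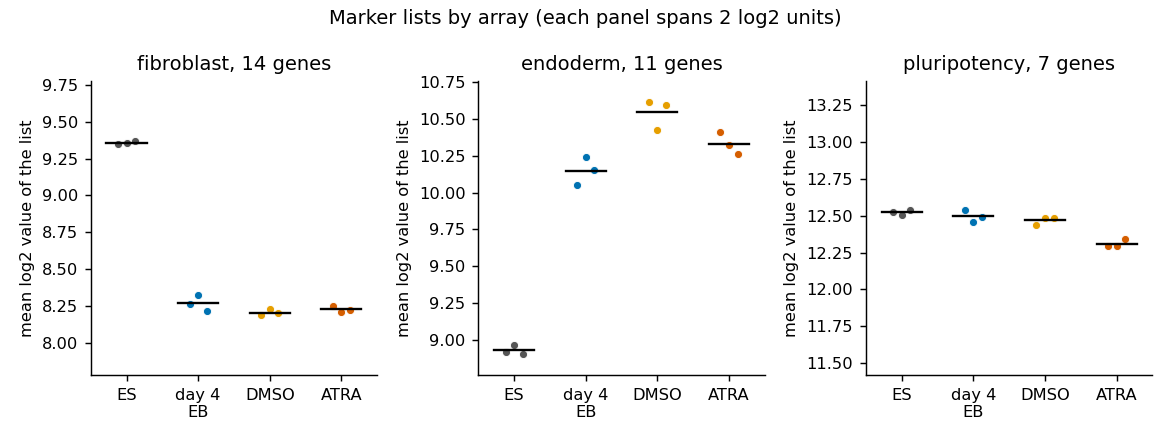
Mean log2 value of each marker list (vertical axis) by group (horizontal axis), 1 point per array and a bar at the mean of 3. The fibroblast list drops between ES cells (9.35 to 9.37) and day 4 EBs (8.21 to 8.33) while the endoderm list rises.

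The other genes of the pathway were read from a list of 40, of which 38 were measured. The other 2, the inhibitor gene Cdkn1a and the cyclin gene Ccnb1, were not analysed here. For day 4 EBs against ES cells 6 rose and 7 fell (median -0.05, against -0.00 over all genes), a count near the 34.7% called among all genes, so it describes these genes and does not set the list apart. Of 5 other inhibitors, Cdkn2c (p18, -1.07 ± 0.12) and Cdkn2b (p15, -0.59 ± 0.05), which block Cdk4 and Cdk6, fell, and Cdkn1c (p57), a relative of p27, rose by 0.58 ± 0.09. Cdkn2c went from 9.47, 8.89 and 9.18 on the ES arrays to 8.17, 7.98 and 8.19 on the day 4 EB arrays. Mycn, a Myc-family transcription factor gene that drives growth in epiblast and neural cells, rose by 1.11 ± 0.06 (limma, adjusted p = 2.02e-08). Mnat1, a subunit of the kinase that activates CDKs, rose by 0.53 ± 0.09, and the repressive family member E2f6 fell (-0.30 ± 0.06).

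For ATRA against DMSO, 1 of the 38 rose and 5 fell (median -0.03, against 0.01 over all genes). This too lies near the share of all genes called (13.3%, with 6.26% higher and 7.05% lower). Mycn read 11.19, 11.13 and 11.23 with DMSO and 10.39, 10.29 and 10.24 with ATRA, against 9.95, 9.93 and 10.03 in ES cells. The ATRA arrays thus lay between those of DMSO and ES cells. Mycn fell by 0.88 ± 0.06 on the log2 scale (limma, adjusted p = 8.92e-07), close to the change of Cdk6. Skp2, the F-box protein that marks p27 for degradation, fell (-0.23 ± 0.05, adjusted p = 0.00457), as did Myc (-0.27 ± 0.07), the Cdk2-activating phosphatase gene Cdc25a (-0.20 ± 0.05) and E2f4, a mainly repressive E2F family member (-0.16 ± 0.04). Cdkn1c rose by 0.42 ± 0.09 (adjusted p = 0.00641). The count of 6 dropped to 3 without DMSO 2, ATRA 1 or ATRA 3. The Cdc25a call ended without DMSO 1, DMSO 2 or any ATRA replicate (-0.21 to -0.18), and Myc without DMSO 2, ATRA 1 or ATRA 3 and with only the 2 groups (-0.29 to -0.18). E2f4 lost it without DMSO 2, DMSO 3 or any ATRA replicate and after median centring (-0.17 to -0.15). DMSO against day 4 EBs called 0 of the 38 in limma, where 0.747% of all genes were called, and 4 of the 38 and 3256 of the 19938 genes had an unadjusted p under 0.05.

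**Figure D4:**
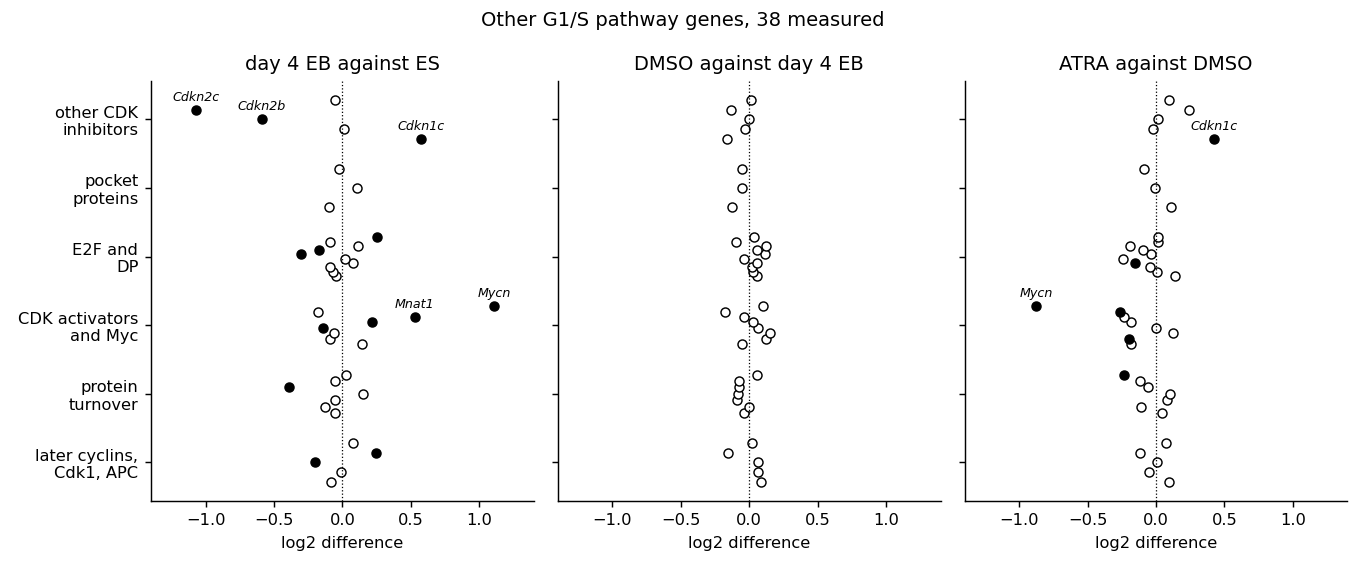
Log2 differences (horizontal axis) of the 38 other G1/S pathway genes, grouped by role (vertical axis), in 3 comparisons; filled points passed an adjusted p of 0.05 in limma. Mycn lies at 1.11 for day 4 EBs against ES cells and at -0.88 for ATRA against DMSO.

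For members whose group means spanned at least 0.5, the 5 genes with the most similar course were found by the root mean square distance of log2 values over the 12 arrays, after each gene's mean was removed. Nearest to Cdk6 were Spry2, an antagonist of FGF signalling (distance 0.0573), the axon guidance gene Ntn1, the homeobox gene Gbx2, Mfap3l and Tfap2a (0.113). Spry2 had group means of 12.09 (ES cells), 12.16 (day 4 EBs), 12.13 (DMSO) and 11.37 (ATRA), with ATRA the lowest as for Cdk6. Nearest to Ccnd1 were Xpnpep2 (0.0551), the transcription factor gene Sox9 (0.0706), Fads3, Aebp1 and Sh3bgrl. Sox9 went from 10.70 in ES cells to 9.401, 9.41 and 9.15. Nearest to Cdkn1b were the histone demethylase gene Kdm4b (0.0508), the Nodal pathway gene Foxh1 (0.0541), Cln3, Srgn and Bdh1. Foxh1 went from 10.14 in ES cells to 10.97, 11.08 and 10.97.

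**Figure D5:**
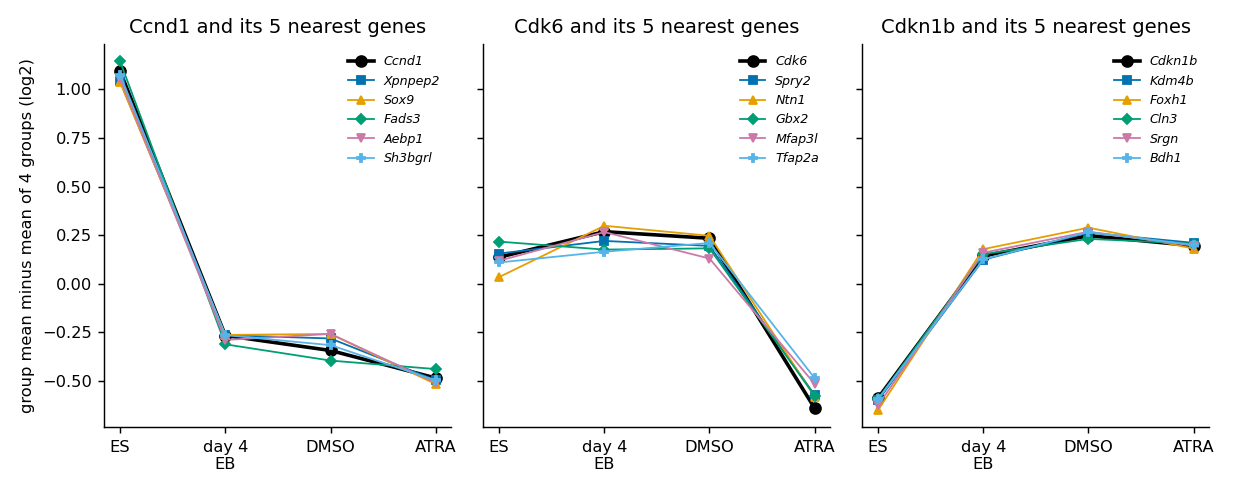
Group means minus the mean of the 4 groups (log2, vertical axis) for Ccnd1, Cdk6 and Cdkn1b (black) and the 5 genes nearest to each, by group (horizontal axis). The genes were chosen for likeness to the member over these same arrays, so their shared course follows from the choice. Genes near Ccnd1 drop at the first step, those near Cdk6 drop with ATRA, and those near Cdkn1b rise at the first step.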

How the data were processed

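RNA of 12 samples was labelled as biotinylated single-stranded cDNA with the Ambion WT Expression kit for Affymetrix arrays, per the labels' protocols. The authors deposited log2 values of 35556 probe sets per array. The log2 scale was read from the values (2.30 to 14.7), and the sources used here do not give the background correction, normalization or summarization. Such arrays, put on nearly one distribution, hide changes of total RNA per cell.

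Of the probe sets, 21789 had exactly 1 symbol in the platform annotation. Each gene was represented by the one with the highest mean over 12 arrays, which gave 19938 genes, with no filter on low values. Groups were fitted in limma 3.58.1 (R 4.3.3) with lmFit, contrasts and eBayes (8 residual and 3.93 prior degrees of freedom), for 6 pairs of groups. The members, gene lists and rules were chosen with earlier results of these data known. Pathway genes are named when called, at most 6 per comparison by adjusted p, and markers as examples. The code was tested on simulated data for ATRA against DMSO with 19938 genes: recovery was 42% at a true log2 change of 0.25, 90% at 0.5 and 100% at 1. Far fewer genes changed there than in the data: it made 174 calls, 8 of them false, where the data gave 2655. The adjusted threshold was thus stricter in the simulation, and its recovery is not the sensitivity of the real comparison. The p-values reflect the spread between the labelled biological replicates. Other settings tried were array weights, a robust prior with an intensity trend, other scalings (quantile, median), other choices of probe set, filters on low mean values, a block for replicate number, a fit of 2 groups at a time, and arrays left out. Upstream sequences came from RefSeq.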

Additional observations from a re-analysis of the deposited data

How the results depend on the processing

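Of 54 changes (9 genes, 6 pairs of groups), 24 were called. Under the 23 alternative settings none of the 24 changed sign, and 19 kept their calls in every setting. Some settings cannot turn a sign, since they leave the log2 difference unchanged: the filters on mean value, the intensity trend, fits of 2 groups, and omission of an array from a group not compared. The losses of the other 5 are given with the results, as are the calls gained by Ccnd1, Ccne2 and Cdk6. For ATRA against DMSO, members called numbered 4 in place of 2 with genes above the median of mean value and with array weights. The former tested fewer genes and gave a smaller SE (Ccnd1, 0.047 in place of 0.052). The cause of either gain was not tested, nor whether calls of all genes shifted alike for any count here. The pathway count was 10, 11, 12 and 10 in place of 6 with genes above the median, an intensity trend, array weights and only the 2 groups. For DMSO against ES cells it was 10 in place of 16 with only the 2 groups (6 arrays). With each array left out in turn the pathway count ran from 3 to 8 (ATRA against DMSO), 5 to 11 (ATRA against day 4 EBs, 9 in the full fit), 9 to 15 (DMSO against ES cells) and 10 to 20 (ATRA against ES cells, 20 in the full fit). It was 5 without EB 3, ATRA 2 or ATRA 3, 9 without DMSO 1, and 13, 13 and 10 without ES 1, ATRA 2 and ATRA 3, in the order of the last 3 comparisons.

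Signs turned in 13 of the remaining fits, all of uncalled differences near 0. For DMSO against day 4 EBs, Ccne2 (-0.01 in the full fit) gave 0.0088 with median centring and ran from -0.0793 to 0.032 with single arrays left out. Cdk4 (0.02) gave -0.0496 with quantile normalization, -0.0247 without ES 2 and EB 2 together, and -0.0247 to 0.0416 with single arrays left out. For ATRA against DMSO, Ccnd3 ran from -0.0395 to 0.0067 and Ccne1 from -0.0017 to 0.0521 with single arrays left out. For ATRA against day 4 EBs, Ccnd3 (0.01) gave -0.0068 with quantile normalization and ran from -0.0105 to 0.0357 with single arrays left out, and for ATRA against ES cells Cdk4 (0.02) gave -0.0268 with quantile normalization. The cause was not tested. Without ES 2 and EB 2 together, the arrays of narrowest spread, 6 members were called for day 4 EBs against ES cells and 3 for ATRA against DMSO. Same-numbered arrays did not all deviate together: their correlations ran from -0.13 to 0.51 (ES 2 with EB 2) across 18 pairs. Across 36 pairs of unlike number the correlations ran from -0.51 (ES 1 with EB 2) to 0.31, and 3 of 12 arrays matched their own number best. The numbers were therefore not taken as pairs, and a replicate block left 6, 0 and 2 members called in the 3 main comparisons. On simulated data, with far fewer changed genes than the real data, 42% of genes changed by 0.25 (log2) were recovered for ATRA against DMSO. Smaller changes, such as those of Cdk4, were not simulated.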

Other observations

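Cyclin and Cdk genes outside the lists above were collected by symbol after the values had been seen, which gave 30 further genes. For day 4 EBs against ES cells 6 rose and 7 fell, 43.3% of the 30 beside 34.7% of all genes. Cdk14, a kinase that works with cyclin Y in Wnt signalling, fell (-1.31 ± 0.06), as did Cdk18 (-1.03 ± 0.05) and Cdk15 (-0.48 ± 0.07). Ccng2, a cyclin gene associated with cell cycle arrest, rose by 0.51 ± 0.09, and Ccnk, whose protein pairs with Cdk12 in transcription, rose by 0.31 ± 0.05. For ATRA against DMSO 3 rose and 5 fell, 26.7% beside 13.3%. Cdk15 made the largest change of the 30, from 6.47 with DMSO to 8.19 with ATRA, a rise of 1.72 ± 0.07 (limma, adjusted p = 1.13e-08). Cdk18 rose by 0.38 ± 0.05, while Cdk14 (-0.31 ± 0.06) and Ccnl1, a cyclin gene linked to splicing (-0.32 ± 0.07), fell. Each of these 9 calls passed the limma threshold in every alternative setting in which the gene was tested. DMSO against day 4 EBs called 0 of the 30 in limma, with 4 at an unadjusted p under 0.05.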
